A study of Mus musculus with 8 samples.

Results

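Genes that make, carry, break down and sense prostaglandins were compared between the epithelium and the mesenchyme of the distal tips of embryonic mouse lungs. The members were chosen by gene symbol: the transporter gene *Slco2a1*, the cyclooxygenase genes *Ptgs1* and *Ptgs2*, the synthase genes *Ptges* and *Ptgis*, the breakdown gene *Hpgd* and the receptor genes *Ptger1* to *Ptger4*. Of these 10 genes, 9 were analysed among 18996 genes in all, and *Ptgs1* was not analysed here. The 9 genes were represented by 25 array features, called spots below. The spot with the highest mean over the 8 samples stood for each gene, and the others served as a check.

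The material was wild type lung at E12.5, with distal buds freed of their mesenchyme by dispase and needles, and neither tissue carried an allele or received a treatment. There were 4 epithelium samples and 4 mesenchyme samples, and each of 4 arrays held 1 sample of each tissue. The text of the study gives a smaller number of replicates for this comparison, and all deposited samples were used here. The sample labels give the strain as C57bl/6J and the methods C57BL/6, while the design text names BALb/c. Every epithelium sample carried the dye Cy3 and every mesenchyme sample Cy5, so a difference between the dyes and a difference between the tissues cannot be told apart. The mesenchyme was taken along with the mesothelium around it, and neither tissue was sorted further. The values are normalized log2 signals, and every difference below is epithelium minus mesenchyme. A level on an array depends on the probe, so signals were compared between tissues for the same spot. Percentiles of signal over all genes or spots only mark where a signal was dim, and do not rank expression between genes.

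Prostaglandins are lipid signals made from arachidonic acid, which phospholipases A2 release from membranes. Cyclooxygenases turn it into an unstable intermediate, from which synthases make prostaglandin E2 (PGE2), prostacyclin and other prostanoids. PGE2 acts on nearby cells through the EP receptors, and its signal ends when the carrier encoded by *Slco2a1* brings it into a cell and the dehydrogenase encoded by *Hpgd* oxidises it there. In the adult lung this uptake and oxidation is known for clearing prostaglandins from the blood that passes through.

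Labelled tissues were checked against marker genes. All 8 epithelial markers, *Cdh1* and *Foxa2* among them, were higher in the epithelium (median difference 4.05), and all 8 mesenchymal markers, among them *Pdgfrb* and *Tbx4*, were higher in the mesenchyme (median -1.16). The mesenchyme samples also carried more signal for all 8 endothelial markers (median -3.57), all 6 leukocyte markers analysed (-1.75), all 5 erythroid markers analysed (-3.81), 4 of 5 platelet markers (-2.97) and 5 of 7 mesothelial markers (-3.93). The remaining mesothelial markers, *Msln* and *Krt19*, were higher in the epithelium. The epithelium samples carried more signal for 5 of 6 smooth muscle markers (2.59). Over all genes, 45.9% passed the test in either direction, so a gene that differs between these tissues is common.

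The prostaglandin genes fell on opposite sides of the tissue boundary. *Slco2a1* was higher in the epithelium, 7 genes were higher in the mesenchyme, and *Ptgs2* did not pass the test (limma, adjusted p under 0.05 over all genes). With the array as a block, 6 genes rather than 7 were called for the mesenchyme, as *Ptger4* was not, and the spots of *Ptger4* went opposite ways. The test called 21.2% of all genes for the epithelial side and 24.8% for the mesenchymal side. The 8 samples did not overlap between the tissues for *Slco2a1* and for 6 of the 7 genes higher in the mesenchyme, where 20.3% and 24.0% of all genes separated in these directions. The absolute difference was at least 1 for 4 of the 9 genes, against 14% of all genes, and at least 2 for 3 of them, against 5.19% of all genes. The median difference of the 9 genes was -0.80, and that of all genes -0.03. Because the members were chosen with earlier results of these data known, these counts describe the 9 genes and are not a test. In tissue samples such as these, fewer cells of a type and less RNA per cell cannot be told apart.

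**Figure D1:**
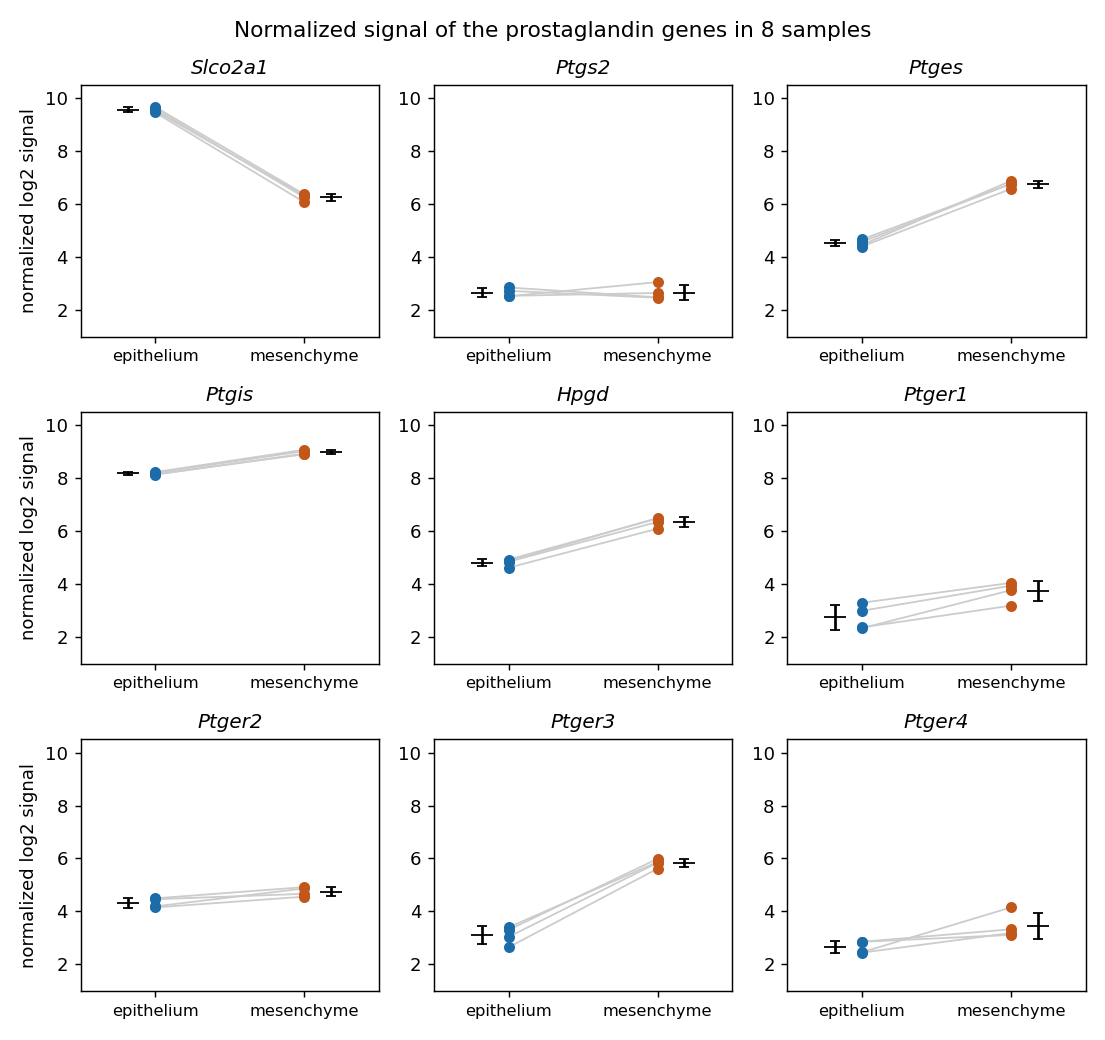
Normalized log2 signal (y axis) of the 9 genes in the 4 epithelium (blue) and 4 mesenchyme (orange) samples; a grey line joins the samples of an array, and the black marks give mean and SD of each tissue. *Slco2a1* fell from epithelium to mesenchyme on every array, 7 genes rose on every array, and *Ptgs2* moved both ways; heights are not comparable between panels, as each gene has its own probe.

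The promoters of the members with the widest differences, *Slco2a1*, *Ptger3* and *Ptges*, are shown because these genes carry the contrast between the tissues. Each run holds the 250 bases before the start of transcription, 5′ to 3′ on the strand of the gene, from RefSeq (GRCm38.p6). The start is the 1 that the promoter table lists for the gene, and the gene records of all 3 genes reach further upstream than this start, so transcripts with other starts are not covered by these windows. *Slco2a1* lies at chr9:103008237-103008486, plus strand, *Ptger3* at chr3:157566626-157566875, plus strand, and *Ptges* at chr2:30903298-30903547, minus strand. Capitals mark TATAAA, the core of a TATA box, and GGGCGG, a GC box, which reads CCGCCC where it lies on the opposite strand.
Slco2a1: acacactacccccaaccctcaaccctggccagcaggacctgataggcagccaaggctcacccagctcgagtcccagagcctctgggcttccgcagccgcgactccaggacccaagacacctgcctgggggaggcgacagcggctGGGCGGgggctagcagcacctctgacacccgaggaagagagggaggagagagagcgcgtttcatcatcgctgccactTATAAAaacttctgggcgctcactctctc
Ptger3: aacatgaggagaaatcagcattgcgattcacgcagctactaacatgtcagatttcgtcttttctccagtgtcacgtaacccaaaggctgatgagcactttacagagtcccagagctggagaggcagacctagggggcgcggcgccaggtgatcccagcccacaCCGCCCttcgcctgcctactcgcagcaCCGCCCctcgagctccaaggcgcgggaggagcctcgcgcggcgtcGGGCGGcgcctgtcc
Ptges: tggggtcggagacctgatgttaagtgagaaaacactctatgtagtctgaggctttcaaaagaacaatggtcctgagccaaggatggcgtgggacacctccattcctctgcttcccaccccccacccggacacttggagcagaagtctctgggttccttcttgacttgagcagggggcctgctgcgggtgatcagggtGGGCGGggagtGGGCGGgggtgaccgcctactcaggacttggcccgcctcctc

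Both strands of the promoters were searched for TATAAA, for GGGCGG and for the other short motifs named below, and 8 of the 10 listed genes had an entry. The TATAAA of *Slco2a1* begins 29 bases before the start, and it was the only 1 of the 8 promoters with this motif, which 12.4% of all 32851 promoters hold. GGGCGG was found in 6 of the 8 promoters and in 32.7% of all, and CCAAT in 2 of the 8 and in 33.8% of all. CCGGAA, a longer form of ETS factor motifs, and TGACGT, a part of the cyclic AMP response element, were in none of the 8 windows. Of all promoters, 12% and 6.47% hold them. The shorter GGAA core of ETS factor motifs was not searched for, so its absence is not shown. These matches describe letters only.

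*Slco2a1* encodes the prostaglandin transporter, which takes PGE2 and related prostaglandins up into cells. Its brightest spot read 9.60, 9.67, 9.52 and 9.46 across the epithelial samples, against 6.26, 6.37, 6.33 and 6.07 across the mesenchymal ones. All epithelium samples lay above all mesenchyme samples, and the lowest difference on an array was 3.20 and the highest 3.39. The mean of 9.56 ± 0.09 (SD, n = 4) for epithelium exceeded that of 6.26 ± 0.13 (SD, n = 4) for mesenchyme by 3.30 on the log2 scale, which is 9.88-fold (SE 0.08, limma adjusted p = 5.71e-09). Counted from the largest difference towards the epithelium, the gene was number 184 of 18996. The brightest spot is assigned to a cDNA record, and the other spot to the RefSeq transcript. That other spot was dimmer, at 5.96, 5.81, 5.78 and 5.65 across epithelial samples, against 4.73, 4.63, 4.99 and 4.80 across mesenchymal samples. That spot also separated the tissues, with a smaller difference of 1.01 (SE 0.10, adjusted p = 3.16e-05 from limma over all spots), so the size of the difference depends on the spot. With the mean of both spots the difference was 2.16.

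*Slco2a1* is also known from endothelial cells, whose part in its signal was not tested. The mean signal of the 8 endothelial markers was between 5.71 and 6.06 in the epithelium samples and between 9.19 and 9.24 in the mesenchyme samples. Of the 6 smooth muscle markers, 5 were higher in the epithelium like *Slco2a1*, and *Des* was not called (0.37, limma adjusted p = 0.0816). The mean signal of all 6 was between 11.41 and 11.54 in the epithelium and between 9.01 and 9.20 in the mesenchyme. Their part in the result was not tested. The genes with the profile nearest to *Slco2a1* over the 8 samples, by the Euclidean distance of values centred on their mean, were *Cadm1* (distance 0.296, difference 3.47), which encodes a cell adhesion molecule, *Arhgap8* (0.304, difference 3.22) and *Etv5* (0.316, difference 3.17), which encodes an ETS transcription factor that responds to FGF signaling. The 8 samples fall into the 2 tissues, so this likeness is mainly a similar difference between tissues.

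Cyclooxygenase makes the first committed step, and of its genes *Ptgs2*, the inducible form, was analysed. Its brightest spot read 2.86, 2.73, 2.52 and 2.54 across epithelial samples, against 2.48, 2.47, 3.06 and 2.65 across mesenchymal samples. The tissues overlapped, and the difference was 0.37 and 0.26 on the first and second arrays and -0.53 and -0.11 on the others. The fit put it at -0.0023 (SE 0.14, 95% interval -0.33 to 0.32, limma adjusted p = 0.992). The gene has 11 spots, with values between 1.70 and 3.48 in all samples, all assigned to the same transcript. Whether they are copies of 1 probe is not given in the sources used here, so they may not be separate checks. Even the brightest had a mean among the dimmest 24.4% of spots. All 11 differences lay between -0.56 and -0.0023, and 1 of them passed the test over all spots (adjusted p = 0.0450 from limma), where 21.7% of all spots were called towards the mesenchyme and 19.7% towards the epithelium. When the spots were averaged, the difference was -0.24 and passed (adjusted p = 0.00697 from limma). The means of the brightest spot lay at the 21.5 percentile of all genes for epithelium and the 22 percentile for mesenchyme, and this low signal limits what can be said of *Ptgs2*.

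*Ptges* encodes the membrane PGE synthase that is often induced together with *Ptgs2*. Its single spot read 4.40, 4.67, 4.46 and 4.58 across epithelial samples, against 6.58, 6.77, 6.88 and 6.77 across mesenchymal samples. Every mesenchyme sample was higher than every epithelium sample. Means of 4.53 ± 0.12 (SD, n = 4) for epithelium and 6.75 ± 0.13 (SD, n = 4) for mesenchyme put the gene 4.67-fold higher in mesenchyme (difference -2.22, SE 0.09, limma adjusted p = 7.00e-08). The other PGE synthase genes, which are not members, had smaller differences between the tissues. *Ptges2* had -0.09 (SE 0.08, adjusted p = 0.416 from limma), and *Ptges3*, which also encodes the chaperone partner p23, was slightly higher in the epithelium (0.15, SE 0.05, adjusted p = 0.0375 from limma).

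*Ptgis* encodes prostacyclin synthase, an enzyme known from vessels and smooth muscle. Its single spot read 8.15, 8.20, 8.14 and 8.24 across epithelial samples, against 8.91, 9.03, 8.93 and 9.08 across mesenchymal samples. The tissues did not overlap, although the step between them was small. It amounted to -0.80 (SE 0.06, limma adjusted p = 4.77e-06), which is 1.74-fold, and it varied little between arrays, from -0.84 to -0.76. The receptor gene for prostacyclin, *Ptgir*, was also higher in the mesenchyme (-0.99, SE 0.09).

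*Hpgd* encodes the dehydrogenase that inactivates prostaglandins after uptake. Its brightest spot read 4.85, 4.87, 4.93 and 4.63 across epithelial samples, against 6.36, 6.51, 6.48 and 6.10 across mesenchymal samples. All mesenchyme samples were higher, and the difference within an array ran from -1.64 to -1.47. The fit gave -1.54 (SE 0.11, limma adjusted p = 3.51e-06), or 2.91-fold towards the mesenchyme. It therefore lay on the side opposite to *Slco2a1*, the carrier that works ahead of it. A second spot gave -1.02 (SE 0.06, adjusted p = 1.11e-06 from limma over all spots), and the spot assigned to a cDNA clone rather than the RefSeq transcript read from 1.74 to 2.05 in the 8 samples, with a difference of -0.10 (adjusted p = 0.391 from limma). With the mean of the 3 spots the difference was -0.89.

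The EP receptor genes were all on the mesenchymal side by their brightest spots, with differences from -2.73 to -0.43. EP1 acts through calcium, EP2 and EP4 raise cyclic AMP, and EP3 mainly lowers it. *Ptger3*, which encodes EP3, had the widest difference of the 4. Its brightest spot read 3.30, 3.40, 2.65 and 3.04 across epithelial samples, against 5.99, 5.87, 5.62 and 5.84 across mesenchymal samples. The samples of the tissues were far apart, and the epithelium mean lay among the dimmest 28.1% of genes in that tissue. The fit gave -2.73 (SE 0.16, limma adjusted p = 1.31e-06), whose size is limited by the low signal of the epithelium.

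The 3 spots of *Ptger3* did not give the same size. The dimmer spot of the RefSeq transcript read 2.34, 1.98, 2.46 and 2.54 across epithelial samples, against 3.48, 2.66, 3.22 and 3.0 across mesenchymal samples. Its difference was -0.76 (SE 0.19, adjusted p = 0.00991 from limma over all spots), in the same direction. The spot assigned to another mRNA record stayed between 1.86 and 2.23 in all samples and had a difference of -0.10 (adjusted p = 0.414 from limma). EP3 is known for splice forms that differ at their end, but which forms these spots detect is not given in the sources used here. With the mean of the spots the difference was -1.20, and with their median -0.72, and both passed the test.

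*Ptger1*, which encodes EP1, read 2.34, 3.30, 3.0 and 2.37 across epithelial samples, against 3.78, 4.05, 3.95 and 3.19 across mesenchymal samples. The tissues overlapped, as the second epithelium sample was above the fourth mesenchyme sample, but the mesenchyme was higher on each array, with differences from -1.44 to -0.75. The fit gave -0.99 (SE 0.26, limma adjusted p = 0.0139). Its epithelium mean lay among the dimmest 23.2% of genes in that tissue. Without the first array (-0.84, adjusted p = 0.0781) or the third (-1.0, adjusted p = 0.0535), limma no longer called it.

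*Ptger2*, which encodes EP2, read 4.19, 4.15, 4.46 and 4.50 across epithelial samples, against 4.87, 4.56, 4.67 and 4.92 across mesenchymal samples. The tissues did not overlap, but the lowest mesenchyme sample was close to the highest epithelium sample. The fit gave -0.43 (SE 0.11, limma adjusted p = 0.0135), or 1.35-fold, the narrowest of the genes that passed. Without the first array it was -0.35 and was not called (adjusted p = 0.0899 from limma).

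*Ptger4*, which encodes EP4, was the receptor whose spots went opposite ways. The brighter spot read 2.86, 2.45, 2.46 and 2.86 across epithelial samples, against 3.11, 3.19, 4.15 and 3.33 across mesenchymal samples, with the third mesenchyme sample well above the rest. Its difference was -0.79 (SE 0.23, adjusted p = 0.0211 from limma). When each array was fitted as a block, which pairs its samples, the gene was not called (limma adjusted p = 0.0610), although 30.9% of all genes were then called towards the mesenchyme and 26.5% towards the epithelium. The other spot, assigned to a cDNA clone, read 2.73, 2.23, 2.65 and 2.94 across epithelial samples, against 2.31, 1.89, 1.86 and 2.23 across mesenchymal samples. Here each of the 4 arrays had more signal for epithelium, and the difference was 0.56 (SE 0.16, adjusted p = 0.0230 from limma over all spots). The mean of both spots had a difference of -0.11 (adjusted p = 0.561 from limma). Both spots were dim, so the direction for *Ptger4* is not settled by these values.

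**Figure D2:**
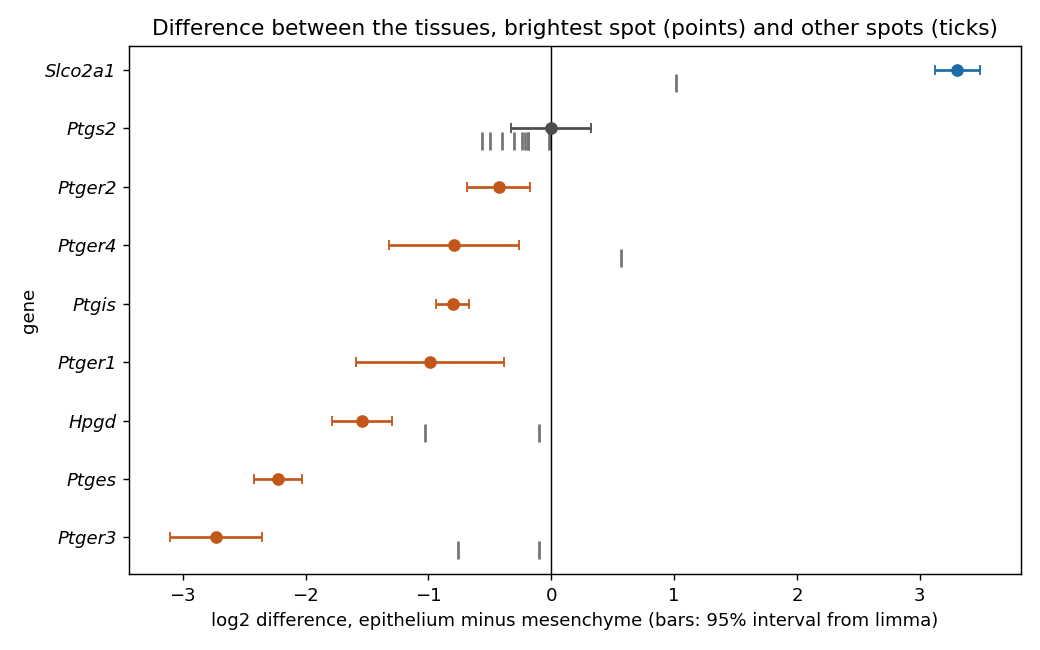
Log2 difference, epithelium minus mesenchyme (x axis), of the 9 genes for the brightest spot (points, with the 95% interval from limma) and for every other spot (grey ticks). The other spots of *Slco2a1*, *Hpgd* and *Ptger3* lie nearer to 0 than the brightest spot. Those of *Ptgs2* lie farther from 0 than its brightest spot, down to -0.56. The other spot of *Ptger4* lies at 0.56, on the other side of 0.

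Markers of several other cell types were higher in the mesenchyme, as were most of the genes above. For the 6 leukocyte markers analysed the mean signal was between 4.99 and 5.12 in the epithelium and between 6.64 and 6.8 in the mesenchyme. It was between 5.55 and 5.71 against 7.82 and 7.85 for the 7 mesothelial markers, and between 3.80 and 3.96 against 6.36 and 6.53 for the 5 platelet markers. The 8 mesenchymal markers had a mean signal between 8.24 and 8.36 in the epithelium and between 9.67 and 9.76 in the mesenchyme. The lowest value of any feature was 1.34, so a signal above 0 does not show that a marker was detected. In the epithelium, the means of 3 of the 5 platelet and 2 of the 6 leukocyte markers lay among the dimmest 30% of genes. So did those of 2 of the 7 mesothelial and 1 of the 8 mesenchymal markers. The part of these cell types in the higher mesenchymal signal of *Ptges*, *Ptgis*, *Hpgd* and the receptor genes was not tested.

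Of 28 other genes of the prostanoid pathway, 26 were analysed. By limma, 10 were called towards the epithelium, 9 towards the mesenchyme and 7 not at all, with a median difference of -0.09; the shares over all genes were the 21.2% and 24.8% given above, and -0.03 was their median. Beside *Slco2a1*, the transporter genes on the list were all higher in the epithelium. *Abcc4*, which encodes an exporter of PGE2, differed by 1.74 (SE 0.31), *Slco4a1*, which encodes a related organic anion carrier, by 1.08 (SE 0.10), and *Slco3a1*, whose product carries prostaglandins, by 0.82 (SE 0.06). A reductase gene that acts after *Hpgd*, *Ptgr1*, was also higher there (0.93, SE 0.06). The second mesenchyme sample of *Abcc4* read 7.89, against 6.33, 6.69 and 6.57 in the other mesenchyme samples. For genes that are not members, the sizes given throughout are those of the brightest spot, and their other spots were not checked.

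Among the widest differences towards the mesenchyme were those of genes for other prostanoids. *Tbxas1*, which encodes thromboxane synthase, differed by -2.32 (SE 0.09) and *Hpgds*, the hematopoietic prostaglandin D synthase gene, by -1.99 (SE 0.16). *Ptgfr*, the prostaglandin F receptor gene, differed by -1.79 (SE 0.14), and *Zadh2*, whose product reduces a breakdown product of PGE2, by -1.70 (SE 0.10). The thromboxane receptor gene *Tbxa2r* followed with -1.66 (SE 0.06). The epithelium means of *Hpgds* (2.60) and *Ptgfr* (2.47) lay among the dimmest 20.2% and 17.3% of genes in that tissue, so low signal limits the size of both differences. The platelet and leukocyte markers given above were also higher in the mesenchyme, and their part in the values of these genes was not tested.

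Genes of phospholipases A2 lay on both sides. *Pla2g4a*, which encodes the cytosolic phospholipase A2 that feeds the cyclooxygenases, was higher in the epithelium by 0.40 (SE 0.09, limma adjusted p = 0.0069), and *Pla2g6* by 0.34 (SE 0.07). *Pla2g10* was also called towards the epithelium (0.52, SE 0.17, limma adjusted p = 0.0304), but its samples overlapped between the tissues. Its mesenchyme mean lay at the 29.7 percentile of all genes. *Pla2g5*, which encodes a secreted form, was higher in the mesenchyme (-1.33, SE 0.09). *Pla2g2d* and *Pla2g4c* were not called.

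**Figure D3:**
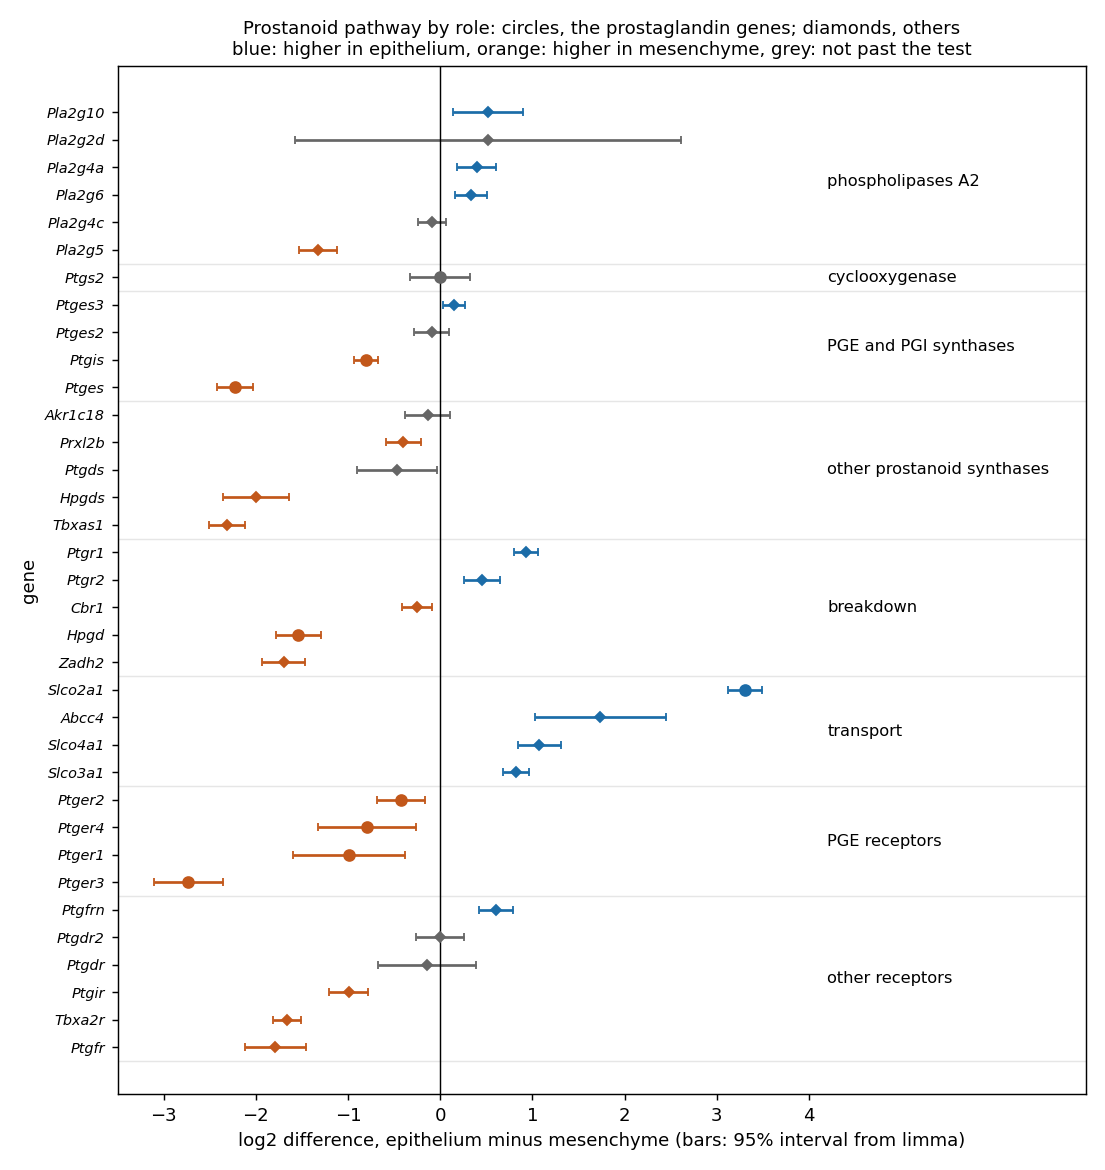
Log2 difference, epithelium minus mesenchyme (x axis), with the 95% interval from limma, of the 9 genes (circles) and of the other prostanoid genes analysed (diamonds), grouped by role. All transport genes shown lie right of 0, from 0.82 to 3.30, and all EP receptor genes left of it, from -2.73 to -0.43.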

How the data were processed

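RNA of 4 epithelium and 4 mesenchyme samples was hybridised to 4 arrays of 2 colours. The values the authors deposited are log2 signals, 1 for each of 45220 features and sample. According to the methods, spot signals from Mapix 6.5.0 were background-corrected with normexp (offset 1), logged and quantile-normalized in limma. Base 2 is an inference from how far the values reach, as no source gives it. Cy3 alone appears in the methods, whereas the labels name both dyes. Precision is limited by there being 4 arrays.

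Of the features, 33653 had 1 gene in the platform annotation, 56 had several and 11511 had none here; 33517 matched RefSeq genes (GRCm38.p6). The 523 features with a missing value were left out. Tissues were compared with lmFit and eBayes (limma 3.58.1, R 4.3.3), unpaired as in the methods, with Benjamini-Hochberg adjustment over all genes. The steps were run on simulated data drawn without an effect of the array or the dye. That run therefore does not bear on the pairing or on the dyes. Plots were made with pandas 2.3.3 and matplotlib 3.10.9 in Python 3.11.15. The alternatives were the array as a block, median centring, loess between the dyes, means or medians of spots, a filter and a floor on dim values, missing values kept, a trended robust variance, and leaving out each array or sample.

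Members and lists were chosen with earlier results of these data known. Named were all members, up to 4 genes of each list in each direction with the widest differences, and the 3 genes nearest to *Slco2a1*. *Ptges2*, *Ptgir*, *Ptges3*, *Tbxa2r*, *Pla2g4a*, *Pla2g6*, *Pla2g10*, *Pla2g5*, *Pla2g2d* and *Pla2g4c* were named after their values were seen. Equal replicate numbers mark 1 array, and the deviations of its samples from the tissue means correlated across genes at 0.347, 0.62, 0.528 and 0.467, so the numbers pair the samples. Each SE given is from the unpaired fit and includes spread between arrays. With the array as a block, the SE of *Ptger1* was 0.13 instead of 0.26, and that of *Ptger4* 0.26 instead of 0.23. Nothing says that samples came from separate embryos, so a p-value here reflects sample-to-sample spread that may be technical.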

Additional observations from a re-analysis of the deposited data

How the results depend on the processing

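The calls of *Slco2a1*, *Ptges*, *Ptgis*, *Hpgd* and *Ptger3* were the same under all 21 alternatives. With the array as a replicate block, *Ptger4* (-0.79, adjusted p = 0.0610 from limma) lost its call, and no other call of the 9 genes changed. *Ptger4* also lost it with the mean or the median of its spots (-0.11 in both) and with dim values floored (-0.70). *Ptgs2* passed with the mean of its spots (-0.24) and had the opposite sign with loess between the dyes (0.0202). Leaving out arrays or single samples gave values from -0.97 to -0.49 for *Ptger4*, from -1.17 to -0.84 for *Ptger1*, from -0.50 to -0.35 for *Ptger2* and from -0.13 to 0.17 for *Ptgs2*. *Ptger1* was not called without array 1 (-0.84) or 3 (-1.0), *Ptger2* not without array 1 (-0.35), and *Ptger4* not without array 2 (-0.81) or 4 (-0.90) or epithelium sample 2 (-0.72) or 3 (-0.73). *Ptgs2* was positive without array 3 (0.17) or 4 (0.03), epithelium sample 3 (0.04) or 4 (0.04), or mesenchyme sample 3 (0.13). The cause was not tested. Without the dimmest 30% of genes, *Ptgs2*, *Ptger1* and *Ptger4* drop out of the test. Low signal limits these genes, and the dye remains confounded with the tissue in every alternative.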

Other observations

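Arachidonic acid also feeds the leukotriene branch through lipoxygenases. Of 11 genes listed, 10 were analysed, limma called 7 towards the mesenchyme, none towards the epithelium and 3 not at all, with a median difference of -0.89, where 24.8% and 21.2% of all genes were called in these directions. The widest differences were those of *Alox12*, the platelet-type lipoxygenase gene (-2.98, SE 0.10), the leukotriene receptor genes *Cysltr1* (-2.61, SE 0.14) and *Ltb4r1* (-1.48, SE 0.15), and *Alox5ap*, which encodes the activating protein of 5-lipoxygenase (-1.88, SE 0.10). The epithelium means of *Alox12*, *Cysltr1* and *Ltb4r1* lay at the 26.9, 26.9 and 30.4 percentiles of all genes, so low signal limits the size of these differences. The leukocyte and platelet markers lay on the same side, and their part in these differences was not tested. Of 10 genes for adenylyl cyclases, which make the cyclic AMP that EP2 and EP4 raise, and for their stimulating G protein, 5 were higher in the epithelium, among them *Adcy8* (2.18, SE 0.15), *Adcy5* (1.56, SE 0.19) and *Adcy1* (1.45, SE 0.14). *Adcy4* (-2.40, SE 0.06) and *Adcy3* (-1.0, SE 0.09) lay on the other side, and 3 were not called, against 21.2% of all genes called for the epithelium and 24.8% for the mesenchyme. The mesenchyme means of *Adcy8* and *Adcy1* lay at the 15.0 and 30.2 percentiles, so low signal limits the size of both differences.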
